A study of Mus musculus with 11 samples.

Results

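The genes described here are 10 genes of antigen presentation by major histocompatibility complex (MHC) class I in mouse trigeminal ganglion neurons: B2m, H2-K1, H2-D1, H2-Q4, Tap1, Tap2, Tapbp, Nlrc5, Psmb8 and Cd274. They were chosen by name, as the rows of the count files that carry these gene names, out of 55401 genes in all. All 10 passed the filter on low counts that left 16817 genes for testing.

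RNA was sequenced from trigeminal neurons of tumour-bearing and sham mice that had been labelled with DiI, a lipophilic tracer that travels back along axons from the tissue where it is applied. MOC1, the label of the tumour-bearing arm, is a mouse oral squamous carcinoma cell line. The groups were MOC1 females (3 libraries), MOC1 males (3), sham females (3) and sham males (2), so 6 MOC1 libraries were compared with 5 sham libraries. Neurons of every group were dissociated from the ganglia of both sides and sorted for DiI, sham included, and no transgene or genotype is named. The sources used here name no strain, age, time after tumour injection or number of animals behind a library. The p-values therefore measure the spread between these libraries, which may be partly technical.

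Class I molecules display short peptides from the cytosol on the cell surface, where CD8 T cells read them. A heavy chain (H2-K1 and H2-D1 are the classical chains of the mouse, H2-Q4 belongs to the Qa group) folds with the light chain beta-2 microglobulin, product of B2m. Peptides are cut by the proteasome, pumped into the endoplasmic reticulum by TAP and loaded with the help of tapasin. Neurons are known for low class I levels at rest, which rise after interferon exposure or injury.

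The libraries held between 10757426 and 16703797 counts in genes, and the members were counted between 24 times (Nlrc5 in MOC1 male 3) and 8433 times (B2m in sham female 1) in a library. Neuronal markers were high throughout, with a summed level of 9799 to 14472 CPM (counts scaled for library size by the TMM method) over 15 pan-neuronal genes. Satellite glia envelop each ganglion neuron, and their markers were present as well, summing to 2949 to 5082 CPM in MOC1 and 7765 to 9381 CPM in sham libraries over 10 genes. Sham female 1 stood apart, with 1653 CPM of endothelial and mural markers against 217 to 439.9 CPM elsewhere and 53.6 CPM of neutrophil markers against at most 7.20 CPM. Earlier results of these data describe it, MOC1 female 3 and MOC1 male 2 as lying apart, and these are the 3 libraries left out together in what follows. Xist was at 302 to 664 CPM in the libraries labelled female and at most 0.447 CPM in those labelled male, and Ddx3y at most 0.221 CPM and 68.4 to 109 CPM, respectively.

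Class I presentation genes tended to lower levels in MOC1 than in sham libraries on TMM scaling. With sex as a term, 3 of the 10 members fell at an adjusted p below 0.05 (B2m, H2-Q4 and Tap1) and none rose, where 6.62% of all genes tested passed in either direction, 4.28% fell and 2.34% rose. The fitted log2 difference was below 0 for 9 of 10 members, with a median of -0.44 against -0.03 over all genes, and Cd274 was at 0.03. These directions are on TMM scaling. With libraries scaled to neuronal markers the median of all genes moves to -0.29. The 9 values below 0 stay below 0 there, and Cd274 changes sign to -0.26, near that median. With libraries scaled to satellite glia markers the median of all genes moves to 1.09, and the members' values lie above 0 except that of H2-Q4 (-0.65), with 6 members higher and 1 lower at an adjusted p below 0.05. In these bulk samples, fewer cells of a type and less RNA per cell cannot be told apart.

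**Figure D1:**
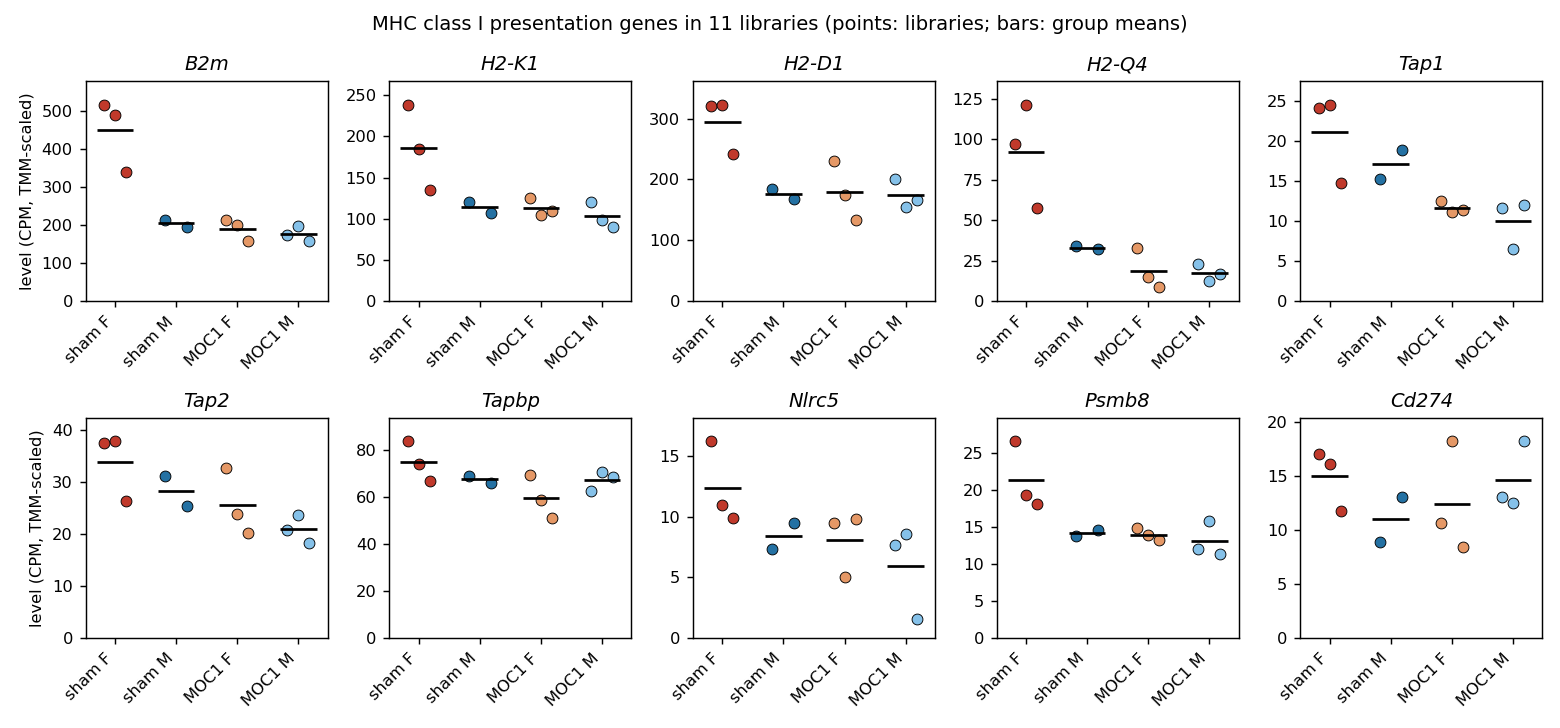
Level of each member (y axis, CPM after TMM scaling) in the 11 libraries, by group (x axis, F female and M male); points are libraries and bars are group means. The 3 sham female libraries lie highest for B2m, H2-K1, H2-D1 and H2-Q4 on this scale, and the Tap1 points of all 6 MOC1 libraries lie below those of all 5 sham libraries.

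B2m, the shared light chain without which class I heavy chains do not reach the surface, had the highest mean level of the members over all 11 libraries (259.7 CPM). H2-D1 came next (209.1 CPM) and had more counts than B2m in MOC1 female 1, MOC1 male 1 and MOC1 male 3. B2m lies at chr2:122147686-122153083 (GRCm38, plus strand, ENSMUSG00000060802.8). Its level was 516, 489.5 and 339.7 CPM in sham females, 214 and 196 CPM in sham males, and 157, 186 and 212 CPM (lowest, median and highest) in MOC1 libraries. The sham females were high, while sham male 1 lay just above the MOC1 range and sham male 3 inside it. The means were 351 ± 149.6 CPM (SD, n = 5) in sham and 183 ± 23.4 CPM (SD, n = 6) in MOC1, a ratio of 1.91. B2m fell by 0.79 ± 0.16 (SE) on the log2 scale (edgeR quasi-likelihood test, adjusted p = 0.00461), and under satellite glia scaling it was at 0.30 (adjusted p = 0.165). Leaving out any single library kept the call (adjusted p at most 0.0257), as did leaving out the 3 libraries that stand apart (-0.65, adjusted p = 0.00178).

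H2-K1, one of the classical heavy chains, lies at chr17:33996017-34000347 (GRCm38, minus strand, ENSMUSG00000061232.16) in the MHC region. It was at 239, 185 and 135 CPM in sham females, 121 and 107 CPM in sham males, and 89.9, 107 and 125 CPM (lowest, median, highest) in MOC1 libraries. Only the sham females stood above the MOC1 range. The log2 difference of MOC1 from sham was -0.47 ± 0.14 (SE), which missed the threshold (adjusted p = 0.0546). H2-K1 passed without MOC1 male 1 (adjusted p = 0.0234), sham female 3 (0.0314) or sham male 3 (0.0270), and with neuronal marker scaling (0.0108).

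H2-D1, the other classical chain in the list, lies at chr17:35262730-35267499 (GRCm38, plus strand, ENSMUSG00000073411.12). It was at 320.4, 323 and 242 CPM in sham females, 185 and 168 CPM in sham males, and 134, 169.95 and 230.4 CPM in MOC1 libraries, again lowest, median and highest. As for H2-K1, the sham females were highest and the sham males lay inside the MOC1 range. The difference was -0.41 ± 0.15 (SE, adjusted p = 0.110). In the DESeq2 fit H2-K1 passed (adjusted p = 0.0257) and H2-D1 did not (adjusted p = 0.0560). Under satellite glia scaling H2-K1 was at 0.64 and H2-D1 at 0.67.

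H2-Q4, a heavy chain of the Qa region, lies near H2-D1 at chr17:35379617-35385290 (GRCm38, plus strand, ENSMUSG00000035929.11) and showed the largest difference of the members. Its level was 96.8, 121 and 57.4 CPM in sham females, 34.2 and 32.1 CPM in sham males, and 8.90, 15.9 and 32.7 CPM (lowest, median, highest) in MOC1 libraries. The sham females were high, and the arms overlapped only in that MOC1 female 1 lay just above sham male 3. The means were 68.4 ± 39.4 CPM (SD, n = 5) in sham and 18.2 ± 8.51 CPM (SD, n = 6) in MOC1, a ratio of 3.76. H2-Q4 fell by 1.70 ± 0.32 (SE) on the log2 scale (adjusted p = 0.00209). It was also lower with satellite glia scaling (-0.65, adjusted p = 0.0426), in every fit that left out a single library (adjusted p at most 0.0134) and without the 3 libraries that stand apart (-1.33, adjusted p = 0.00214).

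The heavy chains differed in how far they moved relative to each other within a library. The count of H2-Q4 over that of H2-D1 was 0.302, 0.376 and 0.237 in sham females, 0.185 and 0.191 in sham males, and 0.0664, 0.0936 and 0.142 (lowest, median, highest) in MOC1 libraries, so the arms did not overlap. H2-Q4 over B2m did not overlap either, at 0.160 to 0.248 in sham and 0.0565 to 0.154 in MOC1. H2-K1 over H2-D1 did overlap, with 0.633 ± 0.0744 (SD, n = 5) in sham and 0.622 ± 0.102 (SD, n = 6) in MOC1. So did the other ratios taken, Psmb8 over Psmb5 (0.449 to 0.958 in sham, 0.417 to 0.716 in MOC1) and Tap1 over Tap2 (0.490 to 0.744 and 0.276 to 0.652). The share of all gene pairs whose ratio separates the arms was not worked out. These ratios do not depend on library scaling and were chosen after levels were known, so they are given without a test. Reads that match several class I genes equally well are not assigned to a gene in these counts, so the level of each chain is uncertain.

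**Figure D2:**
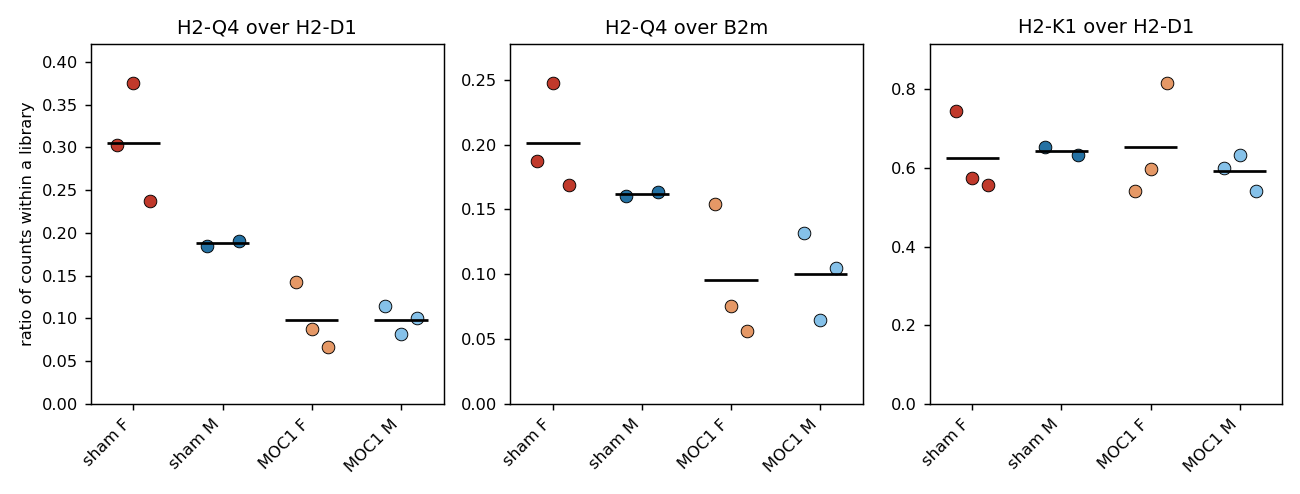
Ratio of counts within a library (y axis, no unit) for 3 gene pairs, by group (x axis); points are libraries and bars are group means. H2-Q4 over H2-D1 and H2-Q4 over B2m are higher in every sham than in every MOC1 library, while H2-K1 over H2-D1 overlaps.

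The proximal promoters of these 4 chains are shown because these 4 genes fell in females and because class I promoters are known to share a set of short elements. Each line holds the 200 bases before the transcription start in the RefSeq promoter table (GRCm38.p6), from 5′ to 3′ on the gene's strand, with matches in capitals: B2m at chr2:122147487-122147686, H2-K1 at chr17:34000334-34000533 (the start furthest downstream of 2 listed), H2-D1 at chr17:35262894-35263093 and H2-Q4 at chr17:35379417-35379616.
B2m: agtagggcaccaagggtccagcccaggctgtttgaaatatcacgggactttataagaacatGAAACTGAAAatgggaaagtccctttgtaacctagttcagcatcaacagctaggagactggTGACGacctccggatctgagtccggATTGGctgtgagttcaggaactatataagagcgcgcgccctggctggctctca
H2-K1: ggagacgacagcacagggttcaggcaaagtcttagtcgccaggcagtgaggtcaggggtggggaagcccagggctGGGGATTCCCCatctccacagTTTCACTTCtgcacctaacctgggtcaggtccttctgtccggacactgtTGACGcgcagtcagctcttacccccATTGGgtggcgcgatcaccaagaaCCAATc
H2-D1: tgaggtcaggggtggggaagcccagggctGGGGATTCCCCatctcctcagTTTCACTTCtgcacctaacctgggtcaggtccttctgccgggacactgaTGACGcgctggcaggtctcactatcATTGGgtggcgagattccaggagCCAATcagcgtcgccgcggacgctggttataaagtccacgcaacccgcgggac
H2-Q4: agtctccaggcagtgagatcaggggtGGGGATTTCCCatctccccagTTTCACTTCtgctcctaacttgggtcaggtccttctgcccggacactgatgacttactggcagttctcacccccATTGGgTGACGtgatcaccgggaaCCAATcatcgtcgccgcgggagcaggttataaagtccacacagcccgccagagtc

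The capitals mark 5 motifs searched on both strands: the interferon response pattern GAANNGAAA, the same pattern with 1 more A in its first run, an NF-kappaB pattern (GGGGATT, any base, then CCC), TGACG as the core of the X2 box and CCAAT as the core of the Y box. None of the matches overlap. H2-K1, H2-D1 and H2-Q4 hold the NF-kappaB pattern, which occurs in 0.0609% of the 32851 promoters of the table, and next to it GAANNGAAA on the opposite strand, which occurs in 5% of them. The patterns were taken from elements known in class I promoters, so these shares do not test their presence here. When aligned, identical bases made up 70.5% (H2-K1 and H2-D1), 66.5% (H2-K1 and H2-Q4) and 81% (H2-D1 and H2-Q4) of the 200 bases. B2m scored 59% to 61% against these windows. The windows are out of register, with the NF-kappaB match starting 125 bases before the start in H2-K1, 171 in H2-D1 and 174 in H2-Q4. Bases at the ends without a counterpart lower these shares, most for H2-K1. The heavy chain windows share long stretches of letters, so their matches are not independent. From H2-D1 to H2-Q4 the NF-kappaB match carries C8T, counted from 1 at its 5′ end. B2m holds no NF-kappaB match and has the interferon response pattern with the added A, found in 2.27% of promoters. TGACG occurs in 15.7% and CCAAT in 29.3% of promoters, and all 4 chains hold both. In H2-D1 the TGACG match lies 101 to 97 bases before the start, upstream of the inverted CCAAT at 76 to 72. In H2-Q4 it lies at 73 to 69, downstream of the inverted CCAAT at 79 to 75. At the place of the H2-D1 match, after the shared letters CACTGA, H2-Q4 reads TGACT. The TGACG marked in H2-Q4 is thus a match elsewhere in the window, not the counterpart of the H2-D1 X2 box core. A match is a description of the letters, not of binding.

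Of the other members, 4 have a table entry: Tap1 holds TGACG, Tapbp holds an inverted CCAAT, and the windows of Psmb8 and Cd274 hold none of the patterns. Tap2 and Nlrc5 were not matched.

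**Figure D3:**
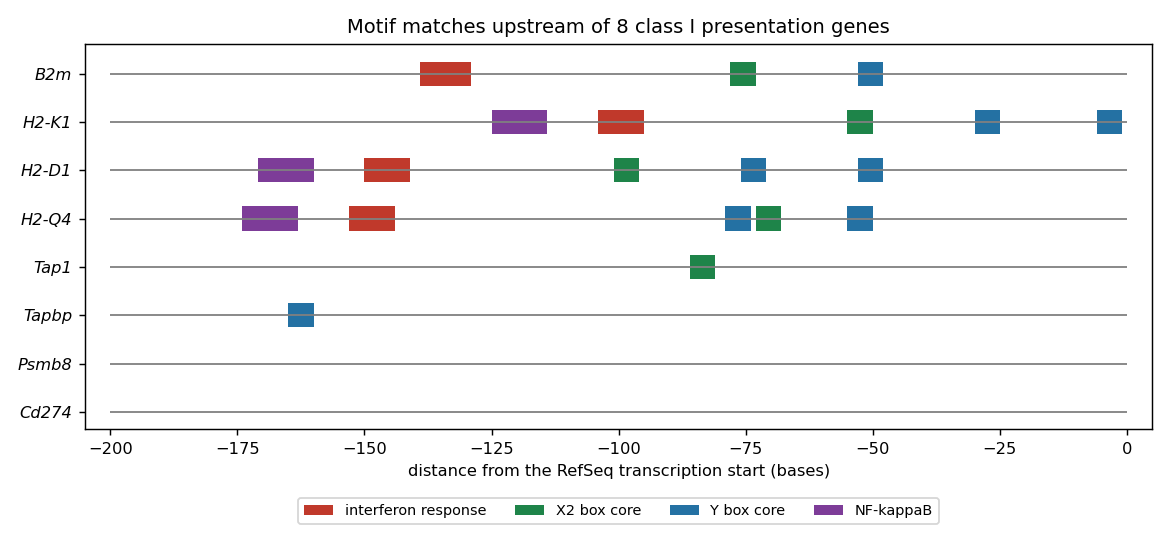
Positions of motif matches (x axis, bases from the RefSeq transcription start) in the 200 bases upstream of 8 members (y axis); boxes span each match and colours mark the motif. H2-K1, H2-D1 and H2-Q4 each hold an NF-kappaB and an interferon response match side by side, and B2m holds an interferon response match at 139 to 130 bases before the start. The X2 box core match of H2-Q4 is not at the place of that of H2-D1, where H2-Q4 reads TGACT.

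Among the 19 listed class I chains, including B2m, 14 were tested, 2 fell (B2m and H2-Q4) and none rose, with a median log2 difference of -0.60 against -0.03 over all genes. Over all genes tested, 4.28% fell and 2.34% rose. H2-Q1, H2-Q10, H2-T3 and H2-M2 had no count in any library. Among the chains outside the 10 members the highest levels were those of H2-T22, a nonclassical chain, and Mr1, which presents vitamin B metabolites to MAIT cells. H2-T22 was at 24.4 ± 2.05 CPM (SD, n = 6) in MOC1 and 26.5 ± 9.08 CPM (SD, n = 5) in sham (adjusted p = 0.918). Mr1 averaged 8.36 ± 2.14 CPM (SD) over MOC1 and 13.5 ± 3.58 CPM (SD) over sham libraries, and did not pass (adjusted p = 0.160). H2-Q6 and H2-Q7, other Qa chains named after their values were seen, were highest in sham female 1, at 28.5 and 14.3 CPM, and at most 4.49 and 4.27 CPM elsewhere.

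Peptide transport and loading genes shared the direction in part. Tap1, a subunit of the peptide pump, lies at chr17:34187553-34197225 (GRCm38, plus strand, ENSMUSG00000037321.17). It was at 24.1, 24.5 and 14.7 CPM in sham females, 15.3 and 18.8 CPM in sham males, and 6.51, 11.5 and 12.5 CPM (lowest, median, highest) in MOC1 libraries. All 6 MOC1 libraries lay below all 5 sham libraries, the only member of which this held, where 4.18% of all genes tested were separated that way and 2.15% in the opposite direction. Tap1 fell by 0.82 ± 0.23 (SE) on the log2 scale (adjusted p = 0.0342), and with satellite glia scaling it was at 0.31 (adjusted p = 0.369). The call was lost without MOC1 female 1 (adjusted p = 0.0551), MOC1 female 2 (0.0733), sham female 1 (0.0895), sham female 2 (0.106), sham male 1 (0.0582) or sham male 3 (0.113). It was also lost without the 3 libraries that stand apart (-0.63, adjusted p = 0.0868).

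Tap2, the partner subunit of Tap1, lies beside it at chr17:34203527-34216321 (ENSMUSG00000024339.12). It was at 37.4, 37.8 and 26.3 CPM in sham females, 31.2 and 25.3 CPM in sham males, and 18.3, 22.2 and 32.7 CPM (lowest, median, highest) in MOC1 libraries. The ranges overlapped, and the difference of -0.42 ± 0.17 (SE) missed the threshold (adjusted p = 0.180). Tapbp (chr17:33915899-33929292, ENSMUSG00000024308.15), which encodes tapasin, the bridge between the pump and the empty class I molecule, varied least. It was at 83.8, 73.9 and 67.0 CPM in sham females, 68.9 and 66.2 CPM in sham males, and 50.9, 65.6 and 70.7 CPM in MOC1 libraries. The groups overlapped widely and the difference was -0.19 ± 0.11 (SE, adjusted p = 0.429).

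Of the 12 genes listed under peptide loading, Tap1 among them, 5 fell and none rose, where 4.28% of all genes tested fell and 2.34% rose. The list is wider than the loading complex itself, and its median was -0.26. The others were Hspa5, Calr, Erap1 and Sppl2a. Hspa5, which encodes the chaperone BiP, was at 484 ± 49.5 CPM (SD, n = 6) in MOC1 and 664 ± 103 CPM (SD, n = 5) in sham and fell by 0.43 ± 0.08 (SE, adjusted p = 0.00137). Calr encodes calreticulin, a chaperone of the loading complex, and fell by 0.31 ± 0.08 (SE, adjusted p = 0.0240). Erap1, which trims peptides in the endoplasmic reticulum, fell by 0.64 ± 0.18 (SE, adjusted p = 0.0417), and Sppl2a, an intramembrane protease, fell by 0.66 ± 0.19 (SE, adjusted p = 0.0464). Under satellite glia scaling these 4 genes were at 0.70, 0.82, 0.44 and 0.41 in that order. Hspa5 was called in every fit that left out a library. Calr was not called without MOC1 female 2, any MOC1 male or either sham male library (adjusted p up to 0.104). Erap1 was called only when the library left out was MOC1 female 1, sham female 3 or sham male 1 (adjusted p otherwise up to 0.156), and Sppl2a only for MOC1 female 3 or sham female 3 (otherwise up to 0.107). Without the 3 libraries that stand apart, 2 of the 12 fell.

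Genes of peptide cutting did not pass the test. Psmb8, an immunoproteasome subunit that replaces a constitutive one after interferon exposure, lies between Tap1 and Tap2 at chr17:34197721-34201454 (GRCm38, plus strand, ENSMUSG00000024338.15). It was at 26.6, 19.3 and 18.2 CPM in sham females, 13.8 and 14.7 CPM in sham males, and 11.4, 13.6 and 15.9 CPM (lowest, median, highest) in MOC1 libraries. The sham females were highest, and the sham males lay inside the MOC1 range. The difference was -0.40 ± 0.21 (SE, adjusted p = 0.327). None of the 5 listed genes of the immunoproteasome and its activator passed, with a median of -0.21. Nor did any of 16 genes listed under the constitutive proteasome, with a median of 0.10. That list also holds the activator genes Psme3 and Psme4. Of all genes tested 6.62% passed, so few calls would be usual for lists of this size. Psme1 and Psme2, subunits of the activator, were at 0.06 ± 0.20 (SE, adjusted p = 0.922) and -0.21 ± 0.18 (SE, adjusted p = 0.629). Psmb1 and Psme4, at the highest levels in the constitutive list, were at 0.28 ± 0.09 (SE, adjusted p = 0.0859) and 0.08 ± 0.09 (SE, adjusted p = 0.749).

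Nlrc5, the transactivator that binds class I promoters through a complex at the X and Y boxes, was at low levels. It lies at chr8:94434356-94527272 (GRCm38, plus strand, ENSMUSG00000074151.13) and was at 16.2, 11.0 and 9.92 CPM in sham females, 7.32 and 9.45 CPM in sham males, and 1.53, 8.13 and 9.78 CPM (lowest, median, highest) in MOC1 libraries. The low value belongs to MOC1 male 3 (24 counts), and the arms overlapped. The difference was -0.56 ± 0.37 (SE, adjusted p = 0.488).

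Of 18 listed transcription regulators of class I genes, 2 fell and none rose, with a median of -0.42, where 4.28% of all genes tested fell and 2.34% rose. Irf1, a transcription factor induced by interferon gamma, was at 21.0 ± 3.84 CPM (SD, n = 6) in MOC1 and 59.2 ± 25.7 CPM (SD, n = 5) in sham. It fell by 1.43 ± 0.21 (SE, adjusted p = 2.47e-04), with -0.32 (adjusted p = 0.208) under satellite glia scaling. Nfkb1, an NF-kappaB subunit, was at 24.9 ± 6.59 in MOC1 and 41.6 ± 9.13 CPM in sham libraries and fell by 0.75 ± 0.21 (SE, adjusted p = 0.0362), with 0.32 under satellite glia scaling. Its call was lost without any female library of either arm or without MOC1 male 1 (adjusted p up to 0.0995).

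Of 11 genes listed under interferon receptors and kinases, Socs1 and Socs3 among them, 1 fell and 1 rose. Over all genes tested 4.28% fell and 2.34% rose. Counts this small do not set the list apart. Socs3, an inhibitor of cytokine signalling, was at 97.4 ± 15.8 CPM (SD, n = 6) in MOC1 and 227 ± 50.1 CPM (SD, n = 5) in sham and fell by 1.20 ± 0.13 (SE, adjusted p = 1.55e-05), with -0.07 (adjusted p = 0.771) under satellite glia scaling. Jak1, a kinase of interferon receptors, was at 501 ± 44.0 in MOC1 and 393 ± 62.4 CPM in sham libraries and rose by 0.34 ± 0.08 (SE, adjusted p = 0.0105). With neuronal marker scaling Jak1 was at 0.07 (adjusted p = 0.656), where the median of all genes was -0.29.

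Cd274, which encodes the checkpoint ligand PD-L1 that restrains T cells, was at similar levels in both arms. It lies at chr19:29367455-29388095 (GRCm38, plus strand, ENSMUSG00000016496.7). Its level was 17.0, 16.2 and 11.8 CPM in sham females, 8.91 and 13.1 CPM in sham males, and 8.46, 12.8 and 18.2 CPM (lowest, median, highest) in MOC1 libraries. The groups overlapped almost fully, and 2 MOC1 libraries, MOC1 female 2 and MOC1 male 3, held the highest values. The difference was 0.03 ± 0.26 (SE, adjusted p = 0.975), with -0.26 under neuronal marker scaling and 1.15 (adjusted p = 0.00139) under satellite glia scaling. The medians of all genes under these scalings were -0.29 and 1.09. Cd274 was at -0.26 ± 0.34 (SE) in females and 0.41 ± 0.39 (SE) in males, and neither passed.

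Of the 17 listed checkpoint and co-signalling ligands, 15 were tested, 1 rose and 1 fell, where 2.34% of all genes tested rose and 4.28% fell. These counts do not set the list apart from genes at large. Cd47, the signal against phagocytosis, was at 382 ± 21.0 CPM (SD, n = 6) in MOC1 and 318 ± 32.8 CPM (SD, n = 5) in sham and rose by 0.26 ± 0.08 (SE, adjusted p = 0.0470). With neuronal marker scaling Cd47 was at -0.0024 (adjusted p = 0.992), where the median of all genes was -0.29. The Cd47 call held only when the single library left out was MOC1 male 3 or sham female 1 (adjusted p otherwise up to 0.131). Tnfrsf14, a ligand of BTLA, had no count in any MOC1 library and 0.318 to 1.59 CPM in sham (adjusted p = 0.0464), too few for a fold change, and the call was lost whichever library was left out (adjusted p 0.0557 to 0.118). Pdcd1lg2, the other PD-1 ligand, had no count in any library. Of 8 listed class I like ligands of NK cells, 5 were found and 2 tested, H60b and Ulbp1, both with means below 2 CPM in each arm and neither called.

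The comparison was also made within each sex. In females, B2m, H2-K1, H2-D1 and H2-Q4 fell, 4 of 10 members, where 4.48% of genes passed in either direction, 3.15% fell and 1.33% rose. B2m fell by 1.24 ± 0.15 (SE, adjusted p = 1.81e-04), from a mean of 449 ± 95.2 CPM (SD, n = 3) to 190.4 ± 29.1 CPM (SD, n = 3). H2-Q4 fell by 2.29 ± 0.37 (SE, adjusted p = 0.00130), from 91.9 ± 32.3 CPM to 18.9 ± 12.4 CPM. H2-K1 fell by 0.72 ± 0.17 (SE, adjusted p = 0.0205) and H2-D1 by 0.72 ± 0.16 (SE, adjusted p = 0.0183). Under satellite glia scaling the 4 values were -0.12 for B2m, -1.27 for H2-Q4 (adjusted p = 0.00127), 0.40 for H2-K1 and 0.37 for H2-D1. B2m and H2-Q4 were called in every fit that left out a library. H2-K1 was not called without sham female 1 (adjusted p = 0.0943), sham female 2 (0.0572), MOC1 female 2 (0.0950) or MOC1 female 3 (0.0587), and H2-D1 not without sham female 2 (0.0760), MOC1 female 2 (0.0821) or MOC1 female 3 (0.0642). Without the 3 libraries that stand apart neither was called, with H2-K1 at -0.48 (adjusted p = 0.123) and H2-D1 at -0.48 (adjusted p = 0.0832).

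In males none of the 10 members passed in edgeR, where 1.25% of genes did, and 2 members (H2-Q4 and Tap1) had an unadjusted p below 0.05, as did 1337 genes in all. B2m was at -0.21 ± 0.16 (SE, adjusted p = 0.866), H2-K1 at -0.14 ± 0.19 (SE) and H2-D1 at -0.02 ± 0.18 (SE). H2-Q4 was at -0.93 ± 0.39 (SE, adjusted p = 0.505), with 32.1 and 34.2 CPM in sham and 12.7, 16.6 and 22.96 CPM in MOC1, which do not overlap. Tap1 (15.3 and 18.8 against 6.51, 11.6 and 11.9 CPM) and Tap2 did not overlap between the male arms either. These are 3 of 10 members, where 14.8% of all genes tested had every MOC1 male library below both sham males and 13.1% had every one above. Tap1 was at -0.86 ± 0.32 (SE, adjusted p = 0.149) in females and -0.77 ± 0.35 (SE, adjusted p = 0.574) in males.

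**Figure D4:**
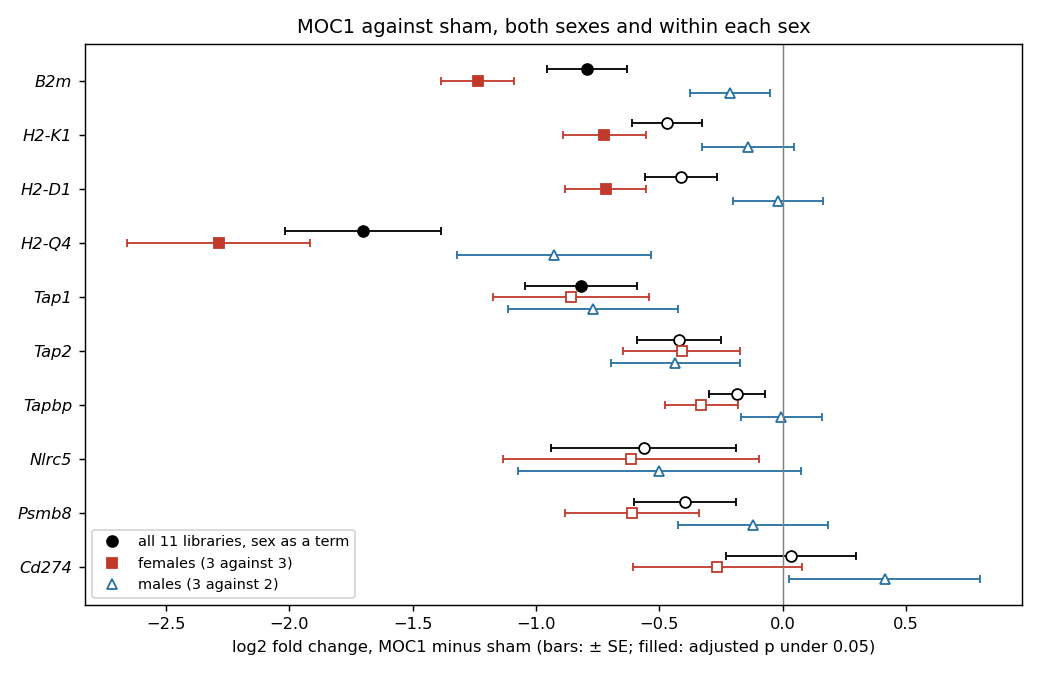
Log2 fold change of MOC1 against sham (x axis; below 0 is lower in MOC1, on TMM scaling) for each member (y axis), over all 11 libraries with sex as a term (circles), in females (squares) and in males (triangles); bars are ± SE and filled symbols passed an adjusted p of 0.05. Filled squares are B2m, H2-K1, H2-D1 and H2-Q4, and no triangle is filled. With satellite glia scaling the median of all genes moves to 1.09, and the members' values over all libraries lie above 0 except that of H2-Q4.

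The test of the difference between the sexes did not call any member, and 0% of all genes were called. The change in females minus that in males was -1.02 ± 0.22 (SE) for B2m (unadjusted p = 2.24e-04, adjusted p = 0.913), -1.36 ± 0.54 (SE) for H2-Q4, -0.70 ± 0.25 (SE) for H2-D1 and -0.58 ± 0.25 (SE) for H2-K1. These 4 members had an unadjusted p below 0.05, as did 708 genes, and no call followed from adjustment over 16817 genes. For Tap1, Tap2 and Nlrc5 the differences were -0.09 ± 0.47, 0.03 ± 0.35 and -0.11 ± 0.78 (SE), intervals that span 0.

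Sham libraries alone were then compared between the sexes. B2m was higher in sham females than in sham males by 1.13 ± 0.17 (SE, adjusted p = 0.00779), a ratio of means of 2.19, and was the only member called, where 0.0476% of genes (8) passed in either direction, 0.0178% (3) higher and 0.0297% (5) lower. The other 2 higher genes were Xist and Hspa1a, named after their values were seen. H2-Q4 was at 1.47 ± 0.41 (SE, adjusted p = 0.959), H2-D1 at 0.74 ± 0.19 (SE, adjusted p = 0.598) and H2-K1 at 0.71 ± 0.19 (SE, adjusted p = 0.843). The B2m call was lost without sham female 2 (adjusted p = 0.0586), sham male 1 (0.0770) or sham male 3 (0.155), and with satellite glia scaling (1.16, adjusted p = 0.140). The sham females enter both this comparison and that of MOC1 with sham in females.

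All 3 sham female libraries exceeded both sham males for 6 members (B2m, H2-K1, H2-D1, H2-Q4, Nlrc5 and Psmb8), where 10.2% of genes were separated that way and 9.94% in the opposite direction. For the same 6 members, a pattern chosen after the values were seen, every sham female also exceeded every other library, where 2.62% of genes did. The sexes of the MOC1 arm overlapped for all 10 members, where 4.07% of genes had every MOC1 female above every MOC1 male library and 5.93% had every one below, so that an overlap was the usual case. B2m was at 190.4 ± 29.1 CPM (SD, n = 3) in MOC1 females, 177 ± 19.4 CPM (SD, n = 3) in MOC1 males and 205 ± 12.6 CPM (SD, n = 2) in sham males. Sham female 1 held the highest level of 5 members and sham female 2 of 4.

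Per kilobase of exon, B2m was the most abundant member in both arms, at 213 ± 27.2 CPM per kb (SD, n = 6) in MOC1 and 408 ± 174 CPM per kb (SD, n = 5) in sham. H2-D1 followed at 68.6 ± 13.3 and 96.0 ± 28.2 CPM per kb, then H2-K1 at 36.7 ± 4.52 and 53.5 ± 18.5 CPM per kb, with ranges that overlapped in sham and not in MOC1. Tapbp came next in MOC1, at 17.5 ± 2.10 CPM per kb, clear of H2-Q4 at 7.01 ± 3.28 CPM per kb. In sham, H2-Q4 was at 26.3 ± 15.2 and Tapbp at 19.8 ± 2.001 CPM per kb, with overlapping ranges. Tap2 (6.14 ± 1.35 and 8.36 ± 1.56), Psmb8 (4.01 ± 0.505 and 5.48 ± 1.51), Cd274 (3.74 ± 1.10 and 3.70 ± 0.915) and Tap1 (1.98 ± 0.397 and 3.56 ± 0.852 CPM per kb) filled the lower range. Psmb8 and Cd274 overlapped in both arms. Nlrc5 was lowest, at 0.826 ± 0.374 and 1.27 ± 0.392 CPM per kb. H2-Q4 lay above Tap2 in all 5 sham libraries and in 3 of 6 MOC1 libraries.

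Markers of other cells moved with some of these results. Satellite glia markers were lower in MOC1 (9 of 10 genes fell, median -1.11) without overlap between the arms. Schwann cell markers summed to 981 to 1380 CPM in MOC1 libraries and to 1857 to 1956 CPM in sham libraries (3 of 10 fell), and neuronal markers were higher in MOC1 (7 of 15 rose). Over all genes tested the shares were 4.28% lower and 2.34% higher. The part of glial RNA in the class I result was not tested. Between the sham sexes, satellite glia markers summed to 7765 to 9381 CPM in females and 8497 to 8511 CPM in males, which overlap. The B2m difference there was 1.13 on TMM scaling and 1.16 under satellite glia scaling, where the size stayed and the call was lost (adjusted p = 0.140).

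Markers of immune cells and vessels were summed in the same way, and their calls stand beside 4.28% of all genes tested that fell and 2.34% that rose. Macrophage markers (13 genes, Mrc1 highest) summed to 9.46 to 29.4 CPM in MOC1 and 14.2 to 38.3 CPM in sham, the highest again in sham female 1, and none of the 13 passed. Of 12 markers of T, NK and B cells, Cd3e, Cd3g, Cd8a, Cd8b1 and Klrb1c had no count in any library, and the sum was at most 1.68 CPM (sham female 2). Class II presenting cell markers summed to 37.5 to 77.3 CPM in MOC1 and 41.9 to 71.3 CPM in sham, highest in MOC1 female 3 and next in sham female 1, with Flt3 the highest marker, Xcr1 at 0 and none called. Endothelial and mural markers were at 217 to 347 CPM in MOC1 and 257 to 439.9 CPM in the sham libraries other than sham female 1, and 2 of 13 tested fell. Neutrophil markers had Ly6g at 0 and none called, and fibroblast markers summed to 61.3 to 72.4 CPM in MOC1 libraries and 88.9 to 178 CPM in sham libraries, with Dpt at 0 and 1 of 7 lower. Epithelial and tumour markers summed to 403 to 528 CPM in MOC1 libraries and 403 to 457 CPM in sham libraries, with Cdh1 highest and Krt5, Krt6a and Krt17 at 0. Red blood cell markers ranged from 2.65 to 178 CPM, with none called. The other sham females had endothelial sums of 271 CPM (sham female 2) and 257 CPM (sham female 3), and B2m was at 489.5 and 339.7 CPM there against 516 CPM in sham female 1. H2-Q4 was at 121 and 57.4 CPM there against 96.8 CPM. The part of these cells in the class I result was not tested.

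**Figure D5:**
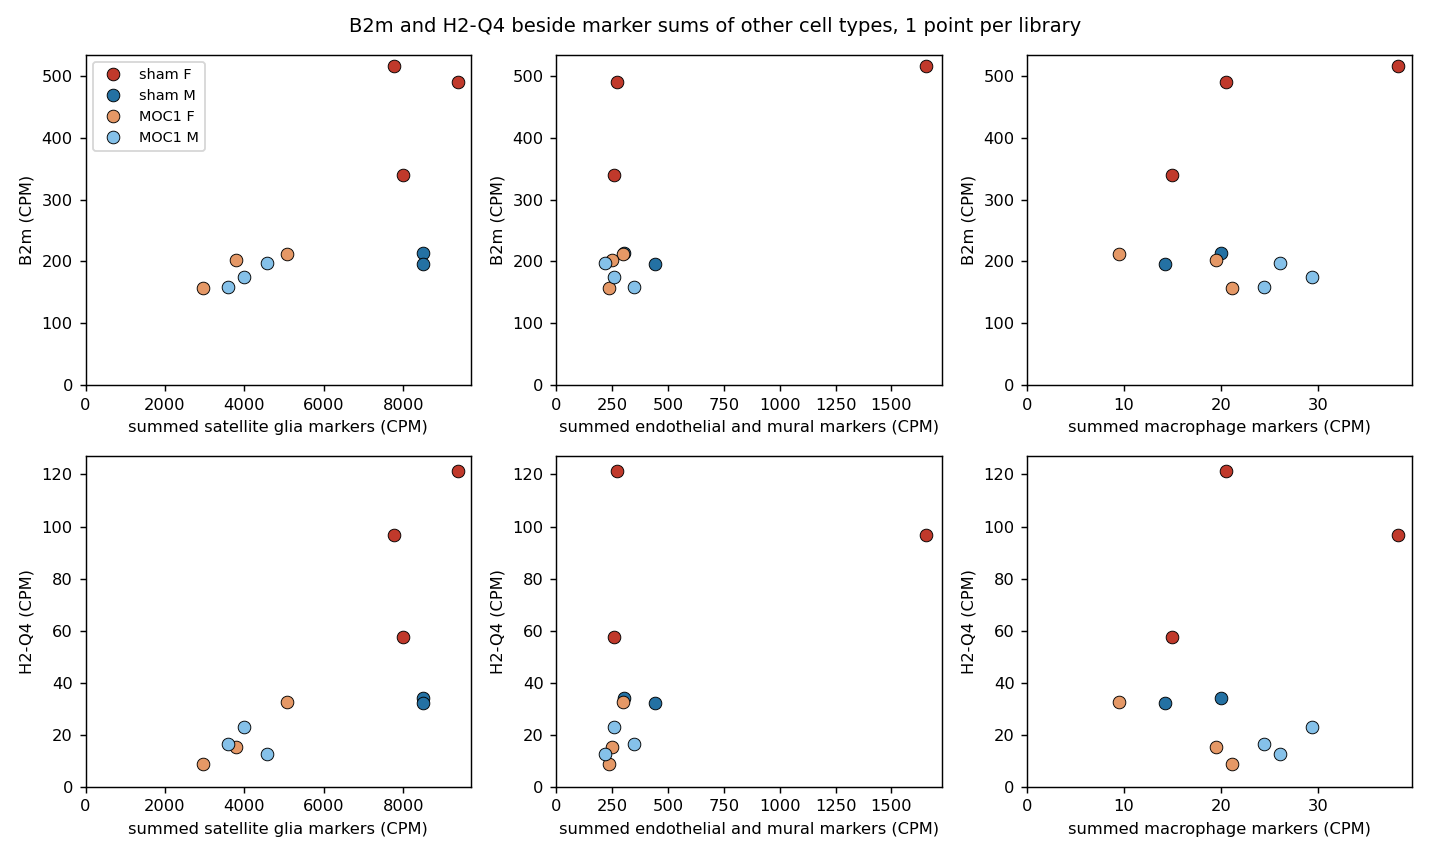
Level of B2m and H2-Q4 (y axes, CPM) against the summed level of satellite glia, endothelial and mural, and macrophage markers (x axes, CPM), 1 point per library coloured by group. The 2 sham males sit at 8497 and 8511 CPM of glial markers with B2m at 196 and 214 CPM, and the sham female at 1653 CPM of endothelial markers is sham female 1.

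Over the 11 libraries, the genes whose log2 CPM was most like that of B2m among 12833 compared were Amotl2 and Plat (r = 0.95 each), Adamts1, Fbxl7 and Nes (r = 0.93 each) and Cttnbp2nl (r = 0.92). They share the high sham females: Adamts1 was at 134 to 223 CPM there and at 45.1 to 94.8 CPM elsewhere. Closest to H2-Q4 were Abca8b and Cdh19 (r = 0.97 each), Insig1 and Hspa1a (r = 0.96 each), and Tor1aip1 and Plxnb2 (r = 0.95 each). Cdh19 is itself in the satellite glia list. Hspa1a, an inducible heat shock gene with a near-identical copy, was at 670 to 1103 CPM in sham females, 259.5 and 286 CPM in sham males and 58.4 to 129 CPM in MOC1. Libraries share depth and cell makeup, so these correlations are descriptions only. Among the members, H2-D1 and H2-Q4 were the most alike pair (r = 0.94), and Cd274 was the least like the others (r between -0.34 and 0.41).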

How the data were processed

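Each deposited file held the authors' whole-number read counts per gene for 1 library, raw and with strand taken into account, per the labels and the file headers. The submitters' processing notes name Trimmomatic 0.35, STAR 2.7.1a, RSEM and GRCm38 (mm10), and no annotation release. Gene lengths came from GENCODE M21, in which 55141 of 55401 identifiers were found. The 4 rows that name no gene, including multimapping reads (8.84% to 11.3% of counts), held 18.7% to 21.5% of counts and were left out. Reads shared by class I genes are thus uncounted.

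Counts were analysed with edgeR 4.0.16 in R 4.3.3 (filterByExpr, TMM, quasi-likelihood F test, Benjamini-Hochberg over 16817 genes, threshold 0.05). MOC1 was compared with sham with sex as a term. A 4-group fit gave the comparisons within each sex, their difference, and female against male in sham. Levels are CPM after TMM, and SE is the size of the log2 change divided by the root of its F statistic. The tests were also run on simulated counts with known changes and no shift in cell makeup, and their outcome is not given here. Alternatives were DESeq2 1.42.0, other size factors, other filters, scaling to neuronal or glial markers, no sex term, the replicate number as a block, each library left out, and 3 libraries left out together. No pair of libraries in a group agreed within sampling noise (chi-square per degree of freedom 13.9 to 42.4).

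The members, lists and alternatives were chosen with earlier results of these data known. Of 218 listed names 215 were found. Beside the 10 members, the text names up to 4 called genes per list by p, or else the 2 at the highest mean CPM, the 6 genes most like B2m and H2-Q4, Xist and Ddx3y, and the highest marker and markers at 0, of which 1 is not reported here.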

Additional observations from a re-analysis of the deposited data

Results flagged for a closer look

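In MOC1 male 2, Tap1 was at 6.51 CPM, far below the other MOC1 libraries, of which the next was at 11.1 CPM and the highest at 12.5 CPM. The gap to the next library was 0.756 of the whole range, above the critical value of 0.625 for 6 libraries. Of 20 groups of member values examined in this way 1 was flagged, and chance flags about 1 in 20. Without MOC1 male 2 Tap1 was at -0.73 (adjusted p = 0.0491) over the remaining libraries.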

How the results depend on the processing

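Size factors of the DESeq2 kind, a filter of 1 CPM in 5 libraries, DESeq2 and leaving out the sex term kept the number of genes and members called within 1.5 times of that reported. Without a low-count filter 5 members (1573 genes) were called over all libraries, 1 in males (469 genes), 3 for the difference between sexes (53 genes) and 4 between the sham sexes (85 genes), with 1316 genes in females. Scaled to neuronal markers, 7 members (1929 genes, 27 higher and 1902 lower) were called over all libraries and 7 (1910 genes) in females. The median of all genes moved to -0.29 under this scaling. The values of Cd274 (-0.26), Psme1 (-0.21), Psme4 (-0.18) and Cd47 (-0.0024) changed sign.

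Scaled to satellite glia markers, 10153 genes were called (10101 higher, 52 lower) with 7 members (6 higher, 1 lower), 8769 genes in females, 7920 with 5 members in males, 2 for the difference between sexes, and 0 members between the sham sexes. B2m (0.30), H2-K1 (0.64), H2-D1 (0.67), Tap1 (0.31), Tap2 (0.66), Tapbp (0.91), Nlrc5 (0.52), Psmb8 (0.70), H2-T22 (1.03), Mr1 (0.41), Hspa5 (0.70), Calr (0.82), Erap1 (0.44), Sppl2a (0.41), Psme2 (0.89) and Nfkb1 (0.32) changed sign. In females H2-K1 (0.40) and H2-D1 (0.37) did, and in males B2m (0.86), H2-K1 (0.94), H2-D1 (1.07) and H2-Q4 (0.17). The cause was not tested. This scaling sets the sum of the glial markers equal in all libraries, and the median of all genes over all libraries moves to 1.09.

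Deviations of same-numbered libraries from their group means were close to uncorrelated (r between -0.04 and 0.07 over 15 pairs, 5 of 11 libraries closest to their own number). This measure showed no clear pairing by replicate number, and whether same-numbered libraries share a batch was not tested. With the replicate block 1090 genes and 3 members were called, H2-K1 (-0.46, adjusted p = 0.0265) and not Tap1 (-0.81, adjusted p = 0.0536), and Cd274 was at -0.026. Without the 3 libraries that stand apart, 2 members (667 genes) were called in females, 490 genes in males, 5 for the difference between sexes and 34 between the sham sexes. H2-T22 (0.14), Psme1 (-0.041) and H2-D1 in males (0.062) changed sign.

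With each library left out in turn, 816 to 1129 genes and 2 to 4 members were called over all libraries. The counts were 345 to 876 genes and 2 to 4 members in females, 62 to 340 genes in males, 0 to 2 for the difference between sexes, and 0 to 1 members between the sham sexes. In females 345, 448 and 411 genes and 2 members were left without MOC1 female 2, MOC1 female 3 and sham female 2. In males the count was 340 without MOC1 female 3, 99 without MOC1 male 1, 81 without MOC1 male 3, 91 without sham male 1 and 62 without sham male 3. Cd274 (-0.13 to 0.18), H2-T22 (-0.13 to 0.12), Psme1 (-0.084 to 0.21), Psme4 (-0.0018 to 0.10) and H2-D1 in males (-0.14 to 0.062) spanned 0. Nlrc5, with 24 to 265 counts per library, is the member whose precision depth limits most.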
